A study of Mus musculus with 6 samples.

Results

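The genes described here encode the proteins of the cytosolic ribosome. They were taken by name from a table of gene expression in the mouse cranial base, as every gene whose symbol is Rpl or Rps followed by a number, with at most the letter a, l or x and 1 more digit, together with Rplp0, Rplp1 and Rplp2. Entries with a mean below 1 FPKM were left out. FPKM is the number of fragments scaled by transcript length and by the fragments mapped in the library, a level per length that allows genes to be compared with each other. Of 43496 entries in the table, 86 matched by name and 84 met the minimum, 48 of the large and 36 of the small subunit. Both entries left out were paralogs of large subunit genes. Rpl3l was 0.347, 0.0961 and 0.248 FPKM in controls 1, 2 and 3, was listed at 0 in mutant 1, and was 0.0703 and 0.106 FPKM in mutants 2 and 3. Rpl10l was listed at 0 in all 6 libraries. The member nearest to the minimum was Rps12l1, with a mean of 1.02 FPKM. Rpsa, Fau and Rpl36al, which also encode ribosomal proteins or their fusions, are outside the naming rule and are given separately.

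The libraries came from cranial base tissue of C57BL/6J embryos at E15.5, a stage counted in days of gestation. There were 3 control embryos and 3 Memo1 mutant embryos, 1 library each, and the mutant allele was made with ENU, a chemical mutagen. No treatment is given for either group, and the labels call the controls no more than that. They do not say whether the mutants were homozygous. The cranial base is the cartilage plate under the brain.

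A ribosome is built from a large and a small subunit, each a core of ribosomal RNA with proteins on its surface and in its clefts. A complete ribosome carries nearly all of them in equal number. Most of their mRNAs begin with a C followed by a run of pyrimidines, the 5′ terminal oligopyrimidine tract, through which their translation follows growth signals. The genes are among the most highly expressed in growing tissue, and reverse transcription of their mRNAs has left many processed pseudogenes, intronless copies of the coding sequence, in mammalian genomes. Inherited loss of a single copy of some of them causes Diamond-Blackfan anaemia in people, and mutations of Rpl24 and Rpl38 in mice are known for skeletal defects.

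Relative depth was read from the steps between low values, since the table holds no counts. Controls 2 and 3 stood at 80.2% and 93.4% of the depth of control 1, and mutants 2 and 3 at 117% and 152%. Mutant 1 gave no readable steps and stood apart from the other 5 libraries. It listed 30811 entries at 0, against 19787 to 20594 in the others, and 10 of the 84 ribosomal protein genes were listed at 0 there and in no other library. The main counts and medians, and the log2 differences that rest on it most, are therefore given with and without it. The titles of the libraries begin with a word that control 1 shares with mutant 1, and controls 2 and 3 with mutant 3, while mutant 2 shares it with no control. The labels do not say what the word means. Memo1 mRNA was 19.1, 23.1 and 21.9 FPKM in controls and 25.4, 20.1 and 22.2 FPKM in mutants (log2 difference 0.0735, SE 0.14, limma adjusted p = 0.802), and -0.011 without mutant 1. An ENU allele is most often a base substitution, and the mRNA level then need not show the genotype. The labels do not say what this allele changes. Markers of cartilage were present in every library. The 5 chondrocyte markers Col2a1, Acan, Sox9, Matn1 and Col9a1 were each higher in all 3 mutants than in any control, as were 8.98% of all tested genes, and summed to 2278 to 3068 FPKM in controls and 3469 to 3940 FPKM in mutants. Of 5 markers listed for each other type, all were in the table for osteoblasts, epithelium and proliferation and 4 for muscle, red cells and neurons, and none of these was at 0 in all libraries. Sums of muscle markers were 3019 to 4190 FPKM in controls and 1926 to 2607 FPKM in mutants, those of epithelial markers 465 to 478 and 250 to 281 FPKM (mainly Krt15 and Krt5, while Epcam and Cdh1 had the higher mean in mutants), those of red cell markers 675 to 827 and 481 to 644 FPKM, and those of osteoblast markers 1493 to 2195 and 872 to 1340 FPKM. Proliferation markers summed to 351 to 367 FPKM in controls and 231 to 329 FPKM in mutants, and neuronal markers to 117 to 212 and 137 to 169 FPKM. A sum does not stand for every marker in it. The log2 difference was above 0 in 1 of 5 osteoblast, 1 of 4 muscle, 1 of 5 proliferation and 3 of 4 neuronal markers, and in 0 of 3 tested red cell markers. In bulk tissue, fewer cells of a type and less RNA per cell cannot be told apart, and the part of these markers in any result below was not tested.

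Ribosomal protein genes held 7.16%, 7.56% and 7.498% of all FPKM in controls 1, 2 and 3. Their share was 6.07%, 7.41% and 6.99% in mutants 1, 2 and 3. Levels differed widely among members. Of the 84, 49 had a mean of at least 100 FPKM and 11 of at least 1000 FPKM. The highest was Rpl41, the smallest ribosomal protein, at 3042, 2640 and 3146 FPKM in controls and 2617, 2831 and 2462 FPKM in mutants. Next among large subunit genes came Rpl13a, also known for a part in silencing inflammatory mRNAs, which averaged 2427 ± 93.6 FPKM over controls and 2377 ± 276 over mutants (SD, n = 3). It was followed by the stalk gene Rplp1, with 2237 ± 178 and 2259 ± 133 FPKM. The highest small subunit genes were Rps15a (1958 ± 147 FPKM over controls and 2096 ± 328 over mutants), Rps15 (1736 ± 74.4 and 1578 ± 111 FPKM) and Rps26 (1323 ± 81.3 and 1307 ± 170 FPKM). In each of these 6 genes the 2 groups overlapped.

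**Figure D1:**
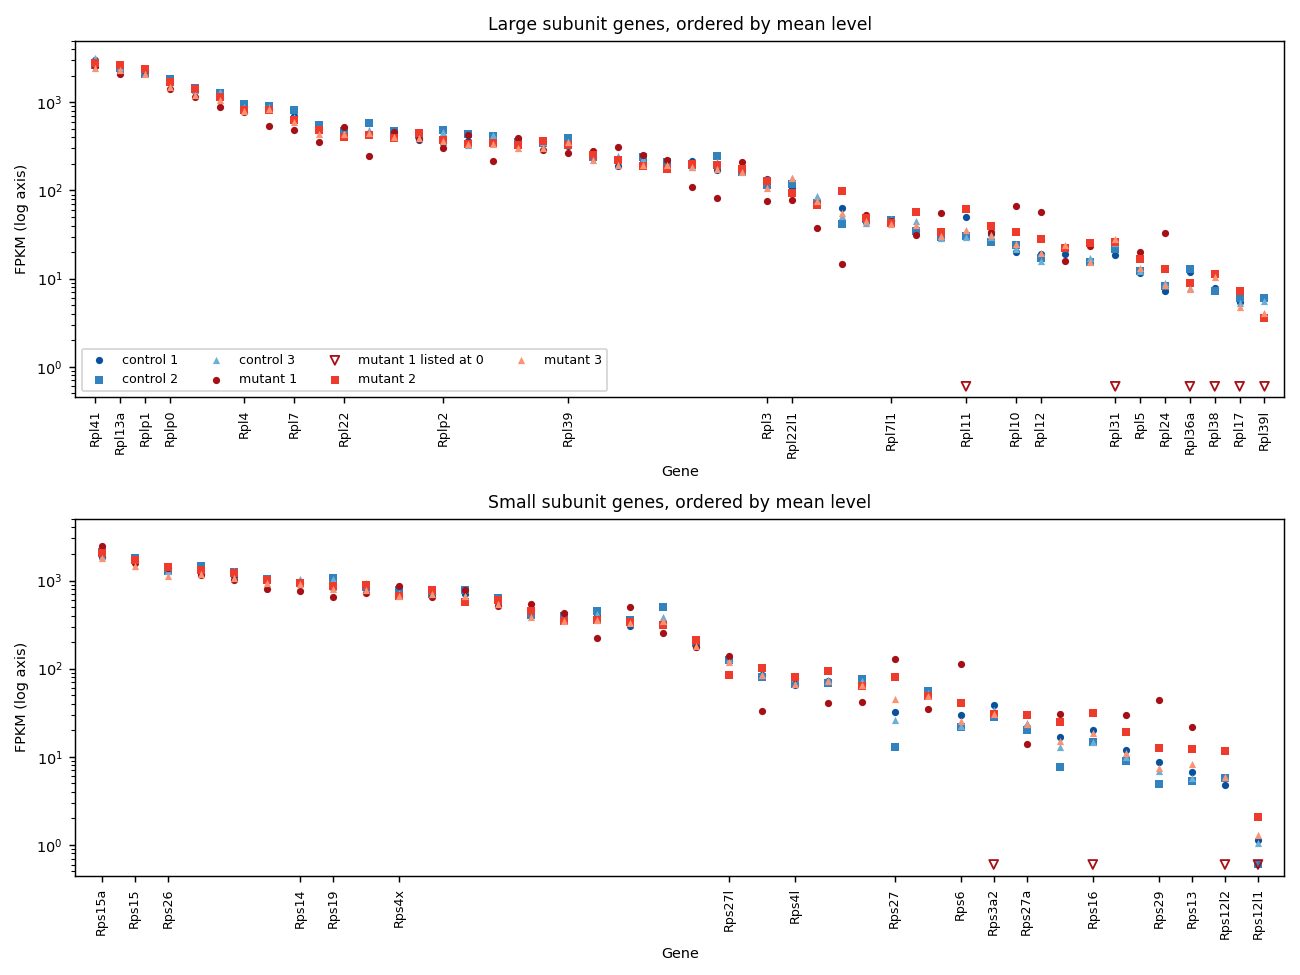
Level of each of the 84 ribosomal protein genes in each library, in FPKM on a log axis, large subunit genes above and small subunit genes below, ordered by mean, with names under the genes picked by the naming rule of the methods. Each symbol is 1 library, and an open triangle, drawn at an arbitrary height near the foot of the axis, marks a gene that is listed at 0 in mutant 1. High genes lie close together in all 6 libraries, and the low genes spread, mostly through mutant 1.

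The low end held canonical genes beside paralogs and pseudogenes. Among protein-coding members, Rpl39l, a paralog of Rpl39 best known from the testis, was 5.97, 6.06 and 5.60 FPKM in controls, listed at 0 in mutant 1 and 3.54 and 4.11 FPKM in mutants 2 and 3. The canonical genes Rpl17 and Rpl38 were also low. Rpl17 was 5.42, 5.99 and 5.26 FPKM in controls, listed at 0 in mutant 1 and 7.29 and 4.82 FPKM in the other mutants. Rpl38, needed for normal patterning of the axial skeleton in mice, was 7.80, 7.21 and 11.5 FPKM in controls, listed at 0 in mutant 1 and 11.3 and 10.6 FPKM in the other mutants. The lowest small subunit entries were Rps12l1 and Rps12l2, which the GENCODE M21 annotation lists as processed pseudogenes, as it does Rps3a2, Rps3a3 and Rps4l. Rps12l2 was 4.81, 5.77 and 5.91 FPKM in controls, listed at 0 in mutant 1 and 11.8 and 5.87 FPKM in mutants 2 and 3, and Rps12l1 was at most 2.09 FPKM in any library. Between the quartiles of the 84 genes the level spanned 17.5-fold. Level and coding length were hardly related across the 79 protein-coding members (Spearman's rho 0.0953, across genes of the same libraries).

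Many low entries had a near-identical copy with a high value. A copy was taken as any annotated gene with at least 95% identity to at least 80% of a member's coding sequence. The 86 entries matched by name were not taken as copies of each other. Pseudogenes among them, such as Rps3a2 or Rps4l, are therefore in no sum with copies of another gene. Each copy was given only to the gene it matched best. Only the 79 protein-coding members were searched, since the 5 annotated pseudogenes have no coding sequence. Of the 79, 73 had copies, 548 in all, of which 402 are in the table. Rpl21 had the most, with 56. In 36 members, 23 of the large and 13 of the small subunit, the copies together had more FPKM than the gene itself, and in 19 members the gene's own entry held less than 10% of the sum. The clearest case was Rps29, a small zinc-binding protein whose loss can cause Diamond-Blackfan anaemia. Its own entry was 8.73, 4.87 and 6.95 FPKM in controls and 44.2, 12.7 and 7.47 FPKM in mutants. The processed pseudogene Gm14303 was listed at 2707, 2777 and 3381 FPKM in controls and 1883, 2665 and 2342 FPKM in mutants. All 168 bases of the Rps29 coding sequence are the same in both. A fragment from it reads the same from either gene.

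Identical coding sequence was also shared by Rps6 and Rps6-ps4 (all 747 bases), Rpl38 and Rpl38-ps2 (210 bases), Rpl12 and Gm10275 (495 bases) and Rpl5 and Gm15500 (891 bases). Rps6, the target of S6 kinase, had a mean of 42.1 FPKM and its copy 717 FPKM. Rpl38 had 8.07 FPKM and its copy 304 FPKM. Other pairs can be told apart at a few bases. Rps25, a protein used at internal ribosome entry sites, was 50.9, 55.5 and 52.7 FPKM in controls and 34.6, 49.5 and 49.3 FPKM in mutants. Its copy Rps25-ps1 was 579, 613 and 575 FPKM in controls and 424, 425 and 478 FPKM in mutants. Rpl39 lines the exit tunnel and was 317, 395 and 352 FPKM in controls and 264, 332 and 356 FPKM in mutants. Gm15148, a copy of Rpl39, was 438, 695 and 566 FPKM in controls, listed at 0 in mutant 1 and 680 and 540 FPKM in mutants 2 and 3. The first 90 coding bases of these pairs follow, read from the GENCODE M21 transcripts (GRCm38) and printed to show how little separates a gene from its copy, with each base that differs within a pair in capitals:
Rps25: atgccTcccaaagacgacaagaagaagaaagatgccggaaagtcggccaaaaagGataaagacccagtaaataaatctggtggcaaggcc
Rps25-ps1: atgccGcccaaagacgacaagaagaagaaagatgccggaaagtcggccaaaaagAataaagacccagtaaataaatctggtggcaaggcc
Rpl39: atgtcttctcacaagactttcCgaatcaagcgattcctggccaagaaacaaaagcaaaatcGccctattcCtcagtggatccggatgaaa
Gm15148: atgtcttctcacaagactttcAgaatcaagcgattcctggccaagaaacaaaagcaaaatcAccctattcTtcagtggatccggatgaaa

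The sources used here do not say how fragments that match both a gene and its copy were assigned, so the level of each such gene is uncertain. The FPKM of each gene was therefore also summed with that of its copies in the table, although FPKM of entries of different length do not add exactly. With copies added, the level between the quartiles spanned 4.21-fold instead of 17.5-fold, and in the 79 protein-coding members 3.01-fold instead of 17.9-fold. The own entries held nearly the same part of this sum in every library, 58.7%, 58.6% and 58.8% in controls and 58.6%, 58.6% and 59.1% in mutants. Among members with no such copy, Rpl8 was 1121, 1284 and 1304 FPKM in controls and 883, 1145 and 1061 FPKM in mutants.

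**Figure D2:**
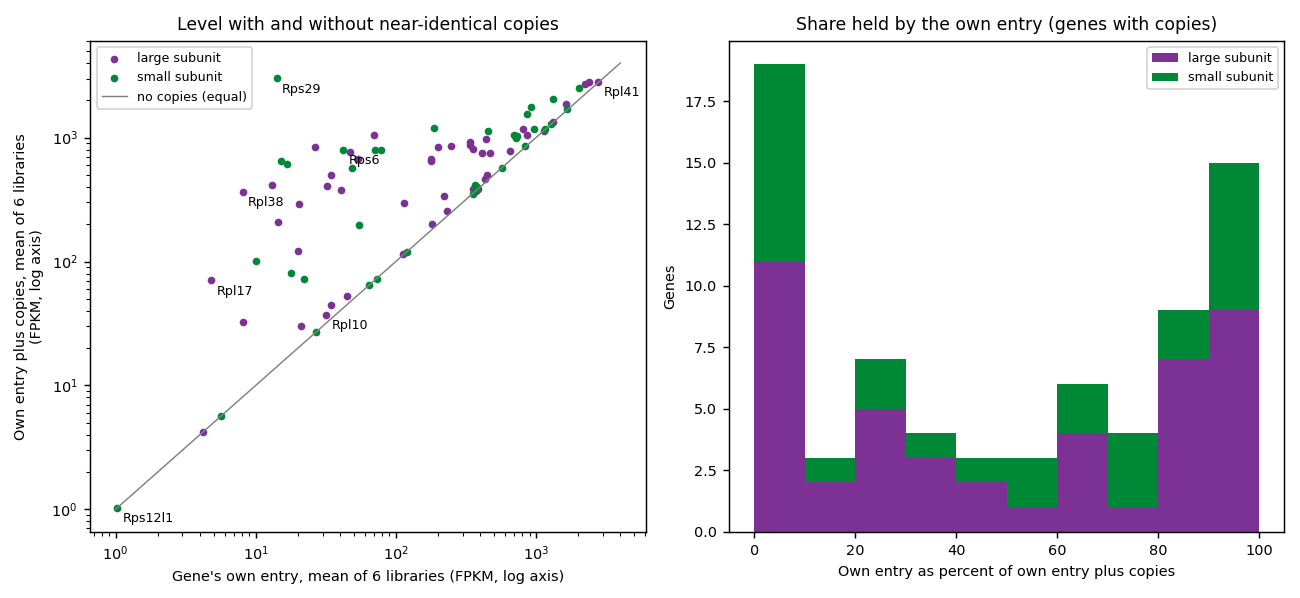
Left, the mean level over 6 libraries of each gene's own entry against that entry plus its near-identical copies, both in FPKM on log axes, with 1 point per gene and a line where both are equal. Right, the number of genes by the percent of that sum held by the own entry, in steps of 10%. The 19 genes at the left of the histogram hold less than 10%, and Rps29 stands farthest above the line.

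The first comparison asked whether ribosomal protein genes as single genes differed between mutant and control cranial base. None did by the test used. Levels were compared with limma on log2(FPKM + 1), a scale that understates the differences of low genes, with p-values adjusted over all 15710 genes of at least 1 FPKM. With all 6 libraries, 0 of the 84 passed an adjusted p of 0.05, and neither did any other gene (0% of all tested). At an unadjusted p under 0.05 there were 4 members (4.76%), against 5.12% of all genes. The smallest adjusted p of a member was 0.695. With limma's array weights, which gave mutant 1 a weight of 0.0329 and the other libraries 1.47 to 2.76, 320 genes were called (2.04%) and 0 members. Without mutant 1, 7 genes were called (0.0446%) and 0 members, and 13 members had an unadjusted p under 0.05, against 17% of all genes. A p that misses the threshold does not show that a gene did not differ. These p-values set each difference against the spread between single embryos. With 1 library each, that spread cannot be told apart from differences between libraries.

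The median log2 difference, mutants minus controls, was -0.15 over large subunit genes, -0.098 over small subunit genes and -0.046 over all tested genes. There were 25 members above 0, 14 of the large and 11 of the small subunit, where 45.8% of all genes were above 0. Without mutant 1 these medians were -0.077, -0.057 and -0.015, with 34 members above 0. In single libraries the median distance of the 84 members from the control mean was -0.22 in mutant 1, 0.026 in mutant 2 and -0.10 in mutant 3, while controls lay between -0.044 and 0.023. Mutant 2 was thus on the side of controls 2 and 3, and mutants 1 and 3 were below every control, including those with which they share a title word. Mutant 3 was the deepest of the libraries whose depth could be read, mutant 1 the one where it could not, and the part of depth was not tested.

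In 18 of the 84 genes (21.4%) the 3 mutants and the 3 controls did not overlap, against 20.9% of all tested genes. Of these 6 lay higher in mutants (7.14%, against 8.98% of all genes) and 12 lower (14.3%, against 11.9%). Both shares were near those of all genes. The higher ones were Rps27, Rps13, Rpl5, Rpl10, Rpl12 and Rpl15. The lower ones included Rpl4, Rpl6, Rpl7, Rpl7l1, Rpl37a, Rpl39l, Rplp0, Rps2, Rps3a3, Rps14 and Rps25. Without mutant 1 there were 28 genes with no overlap (33.3%, against 36.3% of all), 9 higher (10.7%, against 16.2%) and 19 lower (22.6%, against 20.1%).

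The higher genes were low entries in controls. Rps27, a zinc-finger protein of the small subunit, was 32.0, 12.9 and 26.4 FPKM in controls and 128, 80.3 and 45.1 FPKM in mutants. Its log2 difference was 1.76 (SE 0.49, limma adjusted p = 0.695), and 1.40 without mutant 1 (limma adjusted p = 0.209). With its copies, of which the retrogene Rps27rt is the highest, the sum averaged 165 ± 4.53 FPKM over controls and 230 ± 50.8 over mutants (SD, n = 3), and the groups still did not overlap. Rps13, a protein at the bridge between the subunits, was 6.74, 5.25 and 5.77 FPKM in controls and 21.9, 12.4 and 8.27 FPKM in mutants (log2 difference 1.04, SE 0.35, limma adjusted p = 0.695, and 0.69 without mutant 1). Its sum with copies, of which the own entry held 9.99%, was 89.99 ± 9.69 and 111 ± 11.96 FPKM, and the groups overlapped. Rpl10, a late-joining protein near the tRNA sites, was 20.1, 23.8 and 21.8 FPKM in controls and 67.2, 33.9 and 24.8 FPKM in mutants. Its sum with copies was 26.8 ± 2.93 and 47.7 ± 18.1 FPKM, and these did not overlap either.

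Rps6, Rps29 and Rpl24 were highest in mutant 1 and overlapped with controls in mutant 3. Rps6 was 29.6, 21.9 and 22.1 FPKM in controls and 113, 40.6 and 25.4 FPKM in mutants (log2 difference 0.98, and 0.39 without mutant 1). Rps29, with the values above, had a log2 difference of 1.18, and 0.49 without mutant 1. Rpl24, whose Bst mutation in mice alters skeleton and pigment, was 7.27, 8.20 and 8.98 FPKM in controls and 33.3, 12.9 and 8.50 FPKM in mutants. Summed with copies, these 3 genes overlapped between the groups, with log2 differences of -0.037 for Rps6, -0.16 for Rps29 and -0.055 for Rpl24. Their own entries held 5.29%, 0.470% and 3.16% of the sums. Such sums show mainly the copies and cannot test a difference of the own entry. Without mutant 1 these sums gave -0.19, -0.17 and 0.071. Rpl12, a protein at the base of the stalk, was 19.0, 17.3 and 15.96 FPKM in controls and 57.6, 28.5 and 19.5 FPKM in mutants. Its log2 difference was 0.84 for the own entry and 0.041 with copies (own entry 3.11% of the sum), or 0.42 and -0.088 without mutant 1. Its own entry lay above every control in all 3 mutants, if barely in mutant 3.

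**Figure D3:**
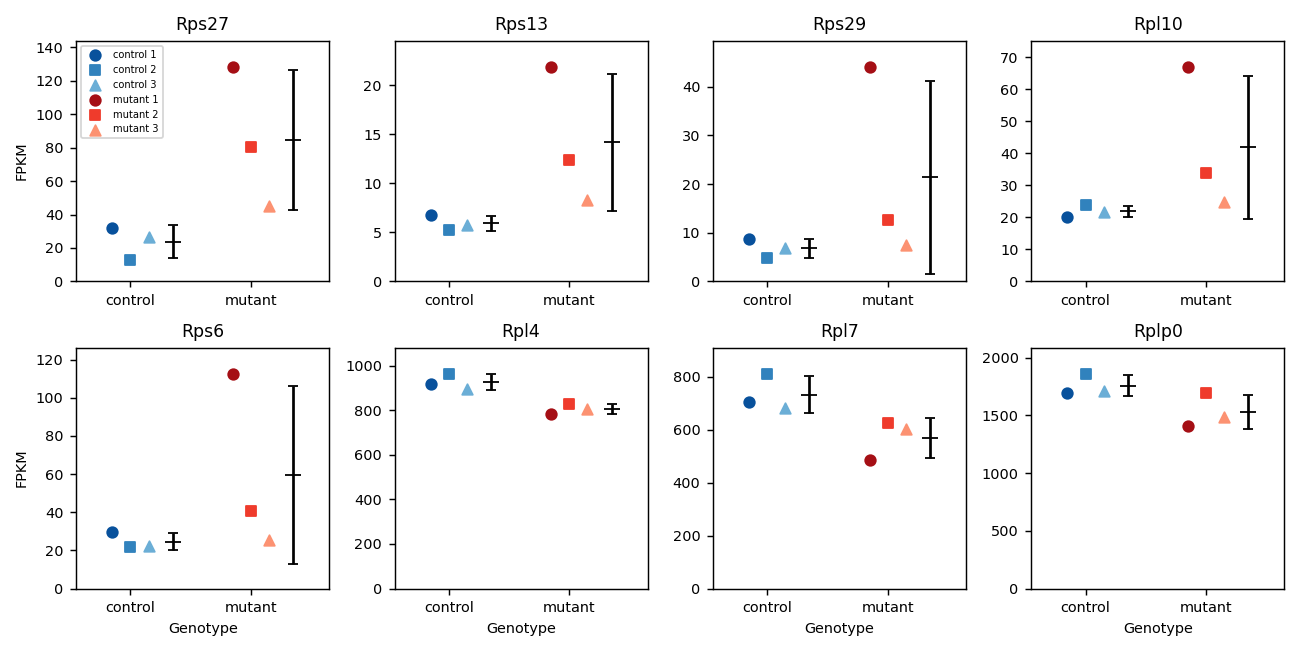
FPKM of 8 genes in each library, on linear axes that start at 0, with the mean and SD of each genotype (n = 3) as a bar beside the points. Rps27, Rps13 and Rpl10 are higher in all 3 mutants and highest in mutant 1, Rps29 and Rps6 are high mainly in mutant 1, and Rpl4, Rpl7 and Rplp0 are lower in all 3 mutants.

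The lower genes were mostly abundant ones with differences of modest size. Rpl4, an arm of which reaches into the exit tunnel, was 917, 964 and 896 FPKM in controls and 785, 827 and 804 FPKM in mutants. Its mutants lay close together and below every control (log2 difference -0.20, SE 0.06, limma adjusted p = 0.695). The difference was slightly smaller without mutant 1, at -0.18. Rpl7 was 706, 812 and 681 FPKM in controls and 484, 625 and 602 FPKM in mutants (log2 difference -0.37, SE 0.13, limma adjusted p = 0.695). Rplp0, the base of the stalk and a common reference gene in quantitative PCR, was 1697, 1862 and 1714 FPKM in controls and 1404, 1693 and 1486 FPKM in mutants, so that control 1 and mutant 2 nearly met. With copies added, Rpl4, Rpl7 and Rplp0 still did not overlap, with log2 differences of -0.15, -0.36 and -0.24. Rps14 was 949, 939 and 1050 FPKM in controls and 757, 936 and 918 FPKM in mutants, a log2 difference of -0.17, and -0.078 without mutant 1.

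The 10 genes listed at 0 in mutant 1 were Rpl11, Rpl17, Rpl31, Rpl36a, Rpl38, Rpl39l, Rps12l1, Rps12l2, Rps16 and Rps3a2. Whether a listed 0 is a failed estimate or a true absence was not tested. In the other mutants these genes were present. Rps16 was 20.0, 14.8 and 14.8 FPKM in controls and 31.6 and 18.5 FPKM in mutants 2 and 3. Rpl36a was 11.8, 12.8 and 7.88 FPKM in controls and 8.95 and 7.59 FPKM in mutants 2 and 3, and the pseudogene Rps3a2 was 38.9, 28.1 and 34.3 FPKM in controls and 30.7 and 30.4 FPKM in mutants 2 and 3. Rpl31 was 18.8, 21.6 and 25.1 FPKM in controls and 26.0 and 28.3 FPKM in mutants 2 and 3. Of the 10, the pseudogenes Rps12l1, Rps12l2 and Rps3a2 were not searched for copies. Copies were found for 6, and their sums with copies in mutant 1 lay on either side of the controls. The sum was above every control for Rpl38 (451 FPKM, against 316 to 384), Rpl17 (88.9, against 58.5 to 66.9) and Rpl36a (68.5, against 20.1 to 23.5). It was below every control for Rpl11 (298 FPKM, against 481 to 642), Rps16 (488, against 623 to 660) and Rpl31 (94.3, against 99.4 to 128).

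The 36 genes whose copies exceeded their own entry differed among the mutant libraries. Their own entries had a median log2 distance from the control mean of -0.29 in mutant 1, 0.34 in mutant 2 (28 of 36 above 0) and 0.018 in mutant 3. Summed with copies, these were -0.11, -0.0044 and -0.15. The other 48 genes had medians of -0.20, -0.058 and -0.14. The high values of mutant 2 were seen in own entries of genes with strong copies. These genes were chosen because copies outweigh the own entry, so their sums could hardly show such values, and nothing is drawn from them.

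**Figure D4:**
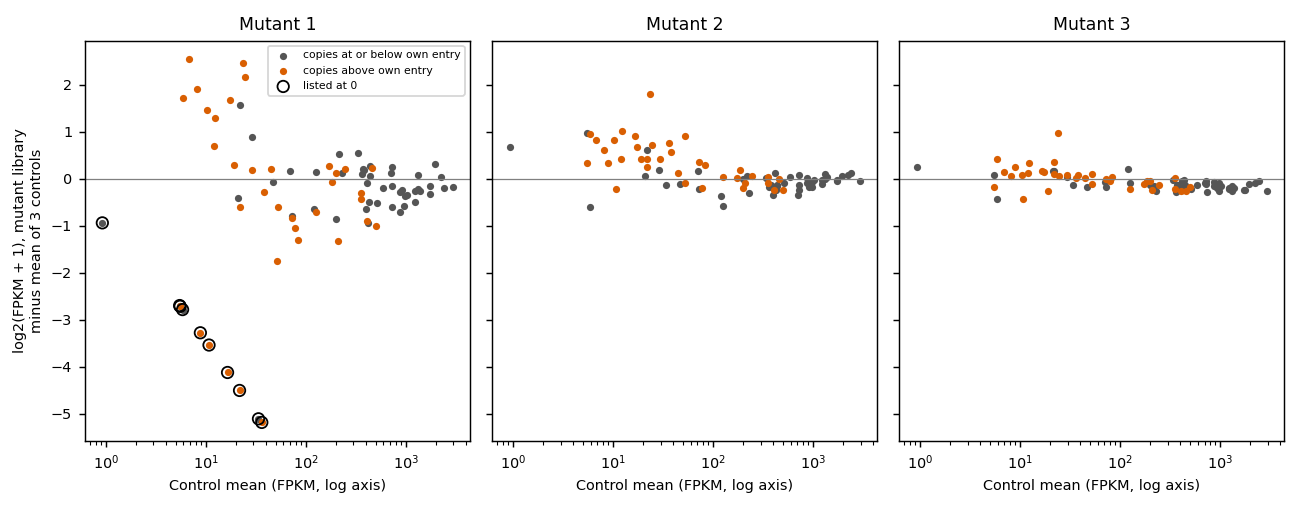
Distance of each ribosomal protein gene from the mean of the 3 controls, in log2(FPKM + 1), against its control mean in FPKM (log axis), with 1 panel per mutant library and 1 point per gene. Orange points are the 36 genes whose copies exceed their own entry, and open rings mark the 10 genes listed at 0 in mutant 1. Spread is widest in mutant 1, orange points lie mostly above 0 in mutant 2, and most genes above 100 FPKM lie slightly below 0 in mutant 3.

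The second comparison set the large against the small subunit. Summed over 48 genes, large subunit FPKM was 20647, 21630 and 21813 in controls and 18280, 20917 and 19161 in mutants. Summed over 36 genes, small subunit FPKM was 16243, 17601 and 17201 in controls and 16195, 16786 and 15260 in mutants. Large subunit sums of mutants 1 and 3 were below every control, and that of mutant 2 was above control 1. The small subunit sums of mutants 1 and 3 were also below every control. The ratio of large to small was 1.27, 1.23 and 1.27 in controls and 1.13, 1.25 and 1.26 in mutants, with means of 1.26 ± 0.0236 and 1.21 ± 0.0707 (SD, n = 3). Mutant 1 alone was low, and without it the mutant ratio was 0.996 of the control ratio, against 0.963 with it. Over the 5 values tested in this way, the 2-sided exact permutation test gave p = 0.2 for each sum (adjusted 0.333), p = 0.5 for the ratio (adjusted 0.625), p = 0.9 for the ratio with copies (adjusted 0.9) and p = 0.2 for the share of all FPKM (adjusted 0.333). With 3 embryos a group this test cannot go below 0.1, which is above the threshold used for single genes, so no value could pass. The 5 values also share genes, and nothing is drawn from these p-values.

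**Figure D5:**
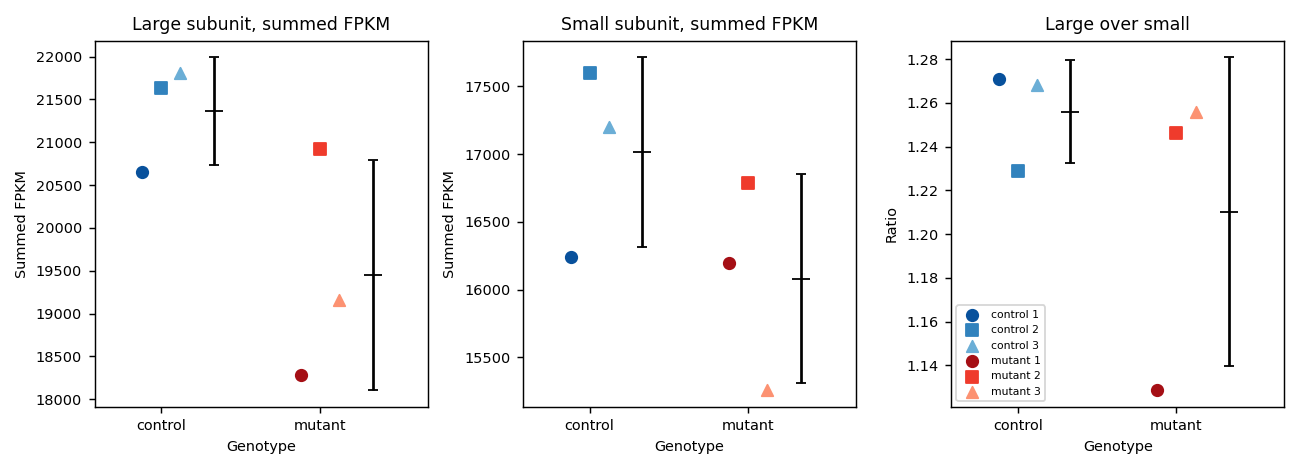
Summed FPKM of the 48 large subunit genes, of the 36 small subunit genes, and the ratio of both sums in each library, with the mean and SD of each genotype (n = 3). The vertical axes do not start at 0. Mutant 1 has the lowest ratio, at 1.13, and the other 5 libraries lie between 1.23 and 1.27.

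With copies added the ratio was 1.15, 1.16 and 1.14 in controls and 1.03, 1.15 and 1.16 in mutants, and mutant 1 stood alone again. Taking the median gene of each subunit in place of the sum, the mutant ratio was 1.08 of the control ratio, and 0.932 without mutant 1. In single libraries that ratio was 0.80, 0.78 and 0.76 in controls and 1.07, 0.72 and 0.73 in mutants, so that the value above 1 came from mutant 1. The order of levels among genes was similar in all libraries. Spearman's rho over the 84 genes was 0.991 to 0.995 between controls and 0.985 to 0.997 for pairs that held mutants 2 or 3 but not mutant 1. It was 0.939 to 0.952 between mutant 1 and the others. Between controls the coefficient of variation of a member had a median of 7.95%, close to the 7.47% of all genes of at least 10 FPKM.

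By role, the stalk genes, whose proteins recruit elongation factors, were abundant. Rplp2 was 342, 482 and 466 FPKM in controls and 302, 375 and 362 FPKM in mutants, and Rplp1 and Rplp0 have been given. None of the 3 stalk genes passed. Rpl5 and Rpl11 form with 5S RNA a particle that also binds the p53 inhibitor Mdm2. Rpl5 was 11.7, 12.3 and 12.2 FPKM in controls and 20.3, 16.6 and 13.3 FPKM in mutants (log2 difference 0.42, SE 0.18, limma adjusted p = 0.695). With copies the log2 difference was 0.074, in a sum of which the own entry held 6.88%. Rpl11 was 49.7, 30.1 and 29.4 FPKM in controls, listed at 0 in mutant 1 and 61.2 and 35.9 FPKM in mutants 2 and 3. None of the 12 genes best known from Diamond-Blackfan anaemia passed. With all libraries 4 were above 0 (median log2 difference -0.083), and 7 were without mutant 1 (median 0.10). Rps19, the gene most often mutated in that disease, was 813, 1068 and 1031 FPKM in controls and 648, 856 and 808 FPKM in mutants (log2 difference -0.33, limma adjusted p = 0.695). Rps27a, which is made as a fusion with ubiquitin, was 21.7, 20.0 and 23.9 FPKM in controls and 14.1, 29.5 and 23.4 FPKM in mutants.

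The paralogs followed no common direction against their partners. Rpl7l1, also a factor of large subunit assembly, was 46.6, 46.5 and 47.6 FPKM in controls and 45.04, 43.2 and 41.8 FPKM in mutants, which did not overlap. Rpl22l1 was 108, 117 and 139 FPKM in controls and 77.2, 93.5 and 139 FPKM in mutants, and its partner Rpl22 was 408, 473 and 444 FPKM in controls and 532, 402 and 433 FPKM in mutants. Rps27l, a target of p53, was 121, 126 and 130 FPKM in controls and 140, 84.4 and 118 FPKM in mutants. Rps4l averaged 70.5 ± 6.72 FPKM over controls and 75.1 ± 6.73 over mutants, and Rps4x, its X-linked partner, 725 ± 46.7 and 730 ± 115 FPKM (SD, n = 3). Rpl3, the partner of the muscle paralog Rpl3l, was 126 ± 8.73 and 104 ± 26.5 FPKM.

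Start regions were compared because the terminal pyrimidine tract lies at the first transcribed base. RefSeq start regions (GRCm38.p6) of 59 of the 84 members were matched by symbol, each from 250 bases before to 50 after the start. CTTTCC, a pyrimidine run searched on both strands, was in 31 of 59 (52.5%), against 29.3% of 27025 genes, and in 23 of 36 large and 8 of 23 small subunit genes. CCGGAAG, the letters of an ETS factor site, was in 25 (42.4%), against 9.93% of all genes. TATAAA was in 7 (11.9%), against 15.7%. Both strands were searched for all 3 motifs, and the first 2 can overlap by a few bases at their ends. A match is a description of letters and not a site in use. These shares of all genes hold for the wider region only. None was taken for the shorter window that follows, so its count has no background to be read against. Within the 30 bases around the start, 15 on either side, 9 of the 59 held CTTTCC on the gene's strand. The 4 shown are those where it began at or just after the first transcribed base, so they do not stand for all 9. It began before that base in Rpl35 and Rpl39l, and further after it in Rpl15, Rps10 and Rpl13a. The 4 are given 5′ to 3′, with CTTTCC in capitals:
Rpl38 (chr11:114668565-114668594, plus strand): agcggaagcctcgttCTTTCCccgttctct
Rps27 (chr3:90213634-90213663, minus strand): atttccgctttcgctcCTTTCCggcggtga
Rpl18 (chr7:45718056-45718085, plus strand): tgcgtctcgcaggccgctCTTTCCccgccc
Rpl28 (chr7:4792950-4792979, plus strand): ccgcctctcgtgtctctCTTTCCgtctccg

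Rpsa, Fau and Rpl36al, outside the naming rule, did not pass either. Rpsa, a small subunit protein also known as a laminin receptor, was 406, 399 and 407 FPKM in controls and 361, 360 and 334 FPKM in mutants, which did not overlap. Fau, which encodes a small subunit protein fused to a ubiquitin-like part, was 17.5, 9.89 and 13.6 FPKM in controls and 45.1, 26.7 and 14.7 FPKM in mutants. Rpl36al was 13.3, 9.92 and 12.4 FPKM in controls, listed at 0 in mutant 1 and 12.8 and 13.0 FPKM in mutants 2 and 3.

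Other lists of the translation machinery held no call with all 6 libraries. Of 18 further genes whose mRNAs begin with a terminal pyrimidine tract or serve translation, 3 were above 0, with a median log2 difference of -0.11, and -0.094 without mutant 1. Eif4b, a helper of the initiation helicase, was 127, 138 and 128 FPKM in controls and 103, 118 and 109 FPKM in mutants. Eef1d, a subunit of the elongation factor 1 exchange complex, was 246, 280 and 260 FPKM in controls and 197, 241 and 227 FPKM in mutants. Both lay below every control in all 3 mutants. Of 28 genes of ribosome biogenesis, 11 were above 0 (median -0.059, and -0.15 without mutant 1), and with array weights 1 was called, lower in mutants, where 1.32% of all genes were. It was Dkc1, the pseudouridine synthase of ribosomal RNA, named after its values were seen, with 43.5, 41.5 and 38.2 FPKM in controls and 54.8, 30.3 and 29.1 FPKM in mutants (weighted log2 difference -0.46, limma adjusted p = 0.0441). Its groups overlapped through mutant 1. Pes1 and Tsr1 were not called. Pes1, needed to process large subunit RNA, was 33.8, 36.2 and 32.0 FPKM in controls and 18.4, 27.2 and 24.6 FPKM in mutants. Tsr1, a factor of small subunit maturation, was 21.1, 23.3 and 22.2 FPKM in controls and 16.4, 16.6 and 19.6 FPKM in mutants.

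Of 74 mitochondrial ribosomal protein genes, 21 were above 0 (median log2 difference -0.11, and -0.17 without mutant 1). In 26 of them all 3 mutants lay below every control, where this held for 11.9% of all genes, and in none did all lie above. With array weights 3 were called, all lower in mutants, where 1.32% of all genes were called lower and 0.719% higher. Mrps23 was 75.2, 77.8 and 76.0 FPKM in controls and 45.2, 56.6 and 56.4 FPKM in mutants (weighted log2 difference -0.43, limma adjusted p = 0.0245). Mrpl20 was not among the 3 called. It was 76.0, 71.2 and 77.0 FPKM in controls and 44.1, 52.7 and 61.1 FPKM in mutants (weighted log2 difference -0.36, limma adjusted p = 0.0729). Whether the mitochondrial genes differ from the cytosolic ribosomal protein genes was not tested. All 3 mutants also lay below every control in 7 of 28 biogenesis genes and 9 of 31 proteasome genes, and above in 1 and 0. They lay below in 2 of the 18 further translation genes, 2 of 18 mTOR and MYC genes and 0 of 12 p53 targets, and above in 1, 2 and 3. Of all genes, 11.9% lay below and 8.98% above.

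Of 31 proteasome genes, another set of abundant subunits made in fixed proportion, 7 were above 0 and 0 passed (median log2 difference -0.14), and 1 was above 0 without mutant 1 (median -0.15). Psma6, a subunit of the outer ring, was 129, 134 and 124 FPKM in controls and 69.4, 93.7 and 118 FPKM in mutants. Psmb6, a catalytic subunit, was 255, 256 and 266 FPKM in controls and 237, 213 and 226 FPKM in mutants. Of 18 genes of the mTOR and MYC pathways, which drive ribosome production, 11 were above 0 and 0 passed (median 0.077, and -0.011 without mutant 1). Rps6kb1, the kinase of Rps6, was 30.7, 26.1 and 27.1 FPKM in controls and 59.0, 35.0 and 33.5 FPKM in mutants, above every control in all 3. Rps6kb2, its paralog, was 20.6, 24.5 and 21.9 FPKM in controls and 17.5, 19.4 and 18.8 FPKM in mutants, below every control in all 3. Of 12 targets of p53, a factor that free ribosomal proteins can activate, 5 were above 0 and 0 passed (median -0.039, and 0.049 without mutant 1). Bbc3, a p53 target that promotes cell death, was 4.23, 4.88 and 5.55 FPKM in controls and 12.3, 7.01 and 6.71 FPKM in mutants. Zmat3, another target, was 5.37, 5.63 and 5.36 FPKM in controls and 10.04, 5.75 and 6.96 FPKM in mutants.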

How the data were processed

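RNA of 6 cranial bases was sequenced by the submitters, and a table of FPKM per gene was deposited. That the values are FPKM was read from the table itself. The submitters' processing notes name Cufflinks and the mouse build mm9, and give no version of the tool. The sources used here do not name the aligner, the annotation or the use of strand. The code 999999999 was treated as missing (15 entries, 0 of them members).

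The 15710 entries with a mean of at least 1 FPKM were compared between genotypes by limma (version 3.58.1, R version 4.3.3) after a log2(FPKM + 1) transformation, with genotype as the only term, trend and robust estimates, all 6 libraries, and Benjamini-Hochberg adjustment at 0.05. The script was tested on simulated data. Array weights, pseudocounts of 0.1 and 5, other filters and scalings, the title word as a random effect and leaving out each library were alternatives. Near-identical copies were found with BLAST 2.17.0 of member coding sequences against GENCODE M21 transcripts (GRCm38), with the alignment covering at least 30% of the copy's transcript, and matched to the table by gene ID. No coordinates are given for table entries because the builds differ. Depth is relative only, and no interval from counts could be made.

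Replicates are separate embryos by their labels, numbered in accession order. The members and gene lists were chosen with earlier results of these data known. Genes named are the 3 highest, 3 lowest and 3 largest differences of either sign per subunit, the paralogs with partners, the role groups, and the 2 smallest p of each other list of pathway genes. Beyond these, genes were chosen after their values were seen, among them Rpl8, Rps25, Rps16, Rpl31 and those listed as not overlapping. A log2 difference is not given for a gene listed at 0 in a library, but such genes stay in counts and medians, which are also given without mutant 1. Rpl13 was not analysed here, and a few items are not reported here.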

Additional observations from a re-analysis of the deposited data

How the results depend on the processing

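No member was called in any of the 18 settings, and the lowest adjusted p of a member was 0.0697 by limma with array weights, for Rpl21 (log2 difference -0.27). Leaving out a library gave 0 to 7 calls among all genes, and 0 among members. Among all genes 320 were called with array weights, 232 with weights and median ratio scaling, 8 without mutant 1 under that scaling, and 1 each with quantile normalization and at 10 FPKM. The combined settings and the block below were added after the data were seen. The median log2 difference of large subunit genes was -0.071 with weights, -0.21 with median ratio scaling, -0.11 with quantile normalization, -0.061 with weights and scaling and -0.060 without mutant 1 under scaling, and from -0.21 to -0.077 with 1 library left out. For small subunit genes it was -0.081 with weights and -0.069 with weights and scaling, which puts them below the large subunit genes, -0.16 with median ratio scaling, -0.041 without mutant 1 under scaling, and -0.17 to -0.057 with 1 library left out. Members without overlap numbered 21 to 33 with 1 library left out. Their share was 39.3% without control 1, 38.1% without mutant 2 and 36.9% without mutant 3, against 27.3%, 31.9% and 33.2% of all genes. It was 26.2% without control 2, 25% without control 3 and 33.3% without mutant 1, against 27%, 27.9% and 36.3%. Lower in mutants were 22 of 84 without control 1 and 26 without mutant 2, against 2319 and 2800 of 15710 genes. With any other library left out they were 13 to 19 of 84, against 2308 to 3154. The ratio of large to small sums, mutants over controls, was 0.945 to 0.996 with 1 library left out (0.996 without mutant 1) and 1.08 by medians (0.932 without mutant 1). Replicate numbers follow accession order and pair no samples. With the title word as a fixed block, where mutant 2 has no control, limma called 0 genes and 0 members. The medians were then -0.14 for large and -0.15 for small subunit genes. With this block 15 of 84 members had an unadjusted p under 0.05, a larger share than the 611 of 15710 genes. Without mutant 2 and without mutant 3 it was 13 of 84 members each, against 833 and 941 of 15710 genes, also a larger share. With 1 control left out it was 2 to 5 of 84 members, against 322 to 365 of 15710 genes.

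Of 406 alternative values of 29 named genes, 26 turned their sign, in 10 genes. With array weights these were Rpl13a (0.019), Rpl22 (-0.064), Rpl22l1 (0.011), Rplp1 (-0.014), Rps15a (-0.061) and Rps27a (0.21). With median ratio scaling they were Rpl22 (-0.023) and Rplp1 (-0.046). With quantile normalization they were Rpl41 (0.0096), Rps26 (0.0043) and Rps4x (0.028), and with the title word Rps4x (0.0043). With 1 library left out the ranges that held both signs were -0.12 to 0.047 for Rpl13a, -0.079 to 0.12 for Rpl22, -0.038 to 0.075 for Rplp1, -0.030 to 0.19 for Rps15a, -0.087 to 0.089 for Rps26, -0.25 to 0.26 for Rps27a, -0.33 to 0.032 for Rps27l and -0.13 to 0.067 for Rps4x. The cause was not tested.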
